A study of Mus musculus with 4 samples.

Results

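RNA recovered with the nuclear matrix protein SAFB was examined for 47 mouse genes with very long introns. The genes were taken from a fixed list of symbols, and each was described where its value reached 1 TPM (transcripts scaled to 1000000 per library) in at least 2 of the 4 libraries. All 47 symbols were found, in 48 of the table's entries, because Dlg2 is listed under 2 identifiers. Of these entries 40 passed the level and were tested, out of 16647 genes tested among 52189 identifiers in the table. The list was drawn up by gene structure, but with earlier results of these data known.

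The study immunoprecipitated RNA (RIP) from AML12 cells and sequenced it, in order to find nuclear RNAs associated with SAFB. AML12 is a line of mouse hepatocytes established from a mouse carrying a transforming growth factor alpha transgene. All 4 libraries came from cells in medium with 10% fetal bovine serum, an insulin, transferrin and selenium supplement and 0.1 µM dexamethasone. Ultraviolet light crosslinked RNA to protein in the cells, and nuclear lysates were sonicated. Control immunoglobulin G (IgG RIP, 2 libraries) was compared with an antibody against SAFB (SAFB RIP, 2 libraries), and the input was not analysed here. The labels do not say that the 2 libraries of a group came from separate cultures, so p-values measure the spread between these libraries, which may be technical.

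SAFB (scaffold attachment factor B) binds both DNA of matrix attachment regions and RNA, and SAFB proteins are known to favour purine-rich RNA. Long genes in mammals are long because of their introns. RNA polymerase takes hours to cross the largest of them, so that nuclear RNA can hold unfinished and unspliced transcripts of such genes beside the mature mRNA. A TPM value is a share of the library per length of transcript, and it does not separate spliced from unspliced RNA.

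The members spanned 207 to 2271 kb of the genome, with a median of 597 kb, and 42 of the 47 spanned 300 kb or more. Their longest intron, in the transcript that represents each gene, was 47.8 to 639 kb long (median 136 kb). It was the intron after the leading exon in 14 of the 47 genes, and one of introns 1 to 3 in 25. Exons took up a median of 1.74% of a member's span, against 19.5% over the protein-coding genes tested. The transcripts had 7 to 79 exons (median 21).

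The 4 spliced junctions below cross the longest introns among the transcripts that represent the members. They show what is joined in the mature mRNA across each gap. Other annotated transcripts hold introns of 588 kb in Fhit, 540 kb in Diaph2 and 534 kb in Dlg2. Lower case gives the last 30 coding bases of the exon before the intron and capitals the 30 bases of the exon after it, 5′ to 3′ on the transcript's strand, from GENCODE M21 transcripts (mm10).
Wwox: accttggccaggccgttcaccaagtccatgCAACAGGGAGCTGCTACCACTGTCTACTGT
Fhit: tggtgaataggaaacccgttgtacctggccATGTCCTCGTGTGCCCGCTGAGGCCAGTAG
Immp2l: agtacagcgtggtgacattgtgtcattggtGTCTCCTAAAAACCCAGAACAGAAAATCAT
Macrod2: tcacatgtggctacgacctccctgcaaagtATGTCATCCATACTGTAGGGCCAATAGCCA
Intron 8 of Wwox lies at chr8:114712252-115351637 on the plus strand and is 639386 bases long. Intron 4 of Fhit lies at chr14:9870176-10421494 on the minus strand and is 551319 bases long. Intron 4 of Immp2l (chr12:41110944-41628763, plus strand) and intron 5 of Macrod2 (chr2:141024142-141515203, plus strand) are 517820 and 491062 bases long. The 4 genes differed in call, and whether their recovery differed was not tested. Wwox was called higher in the SAFB RIP, at a log2 fold change of 0.74. Fhit (1.53), Immp2l (-0.29) and Macrod2 (0.46) were not called in either direction. The call of Wwox was lost when the libraries were centred on their medians, as described below.

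As a check of the cells, all 12 hepatocyte markers were tested, and their summed TPM was 9260 and 9300 in the IgG libraries and 12000 and 11900 in the SAFB libraries. That sum was carried by the most abundant of them, Cp: the markers' median log2 fold change was 0.02, with 3 higher and 1 lower, and 2 higher and 4 lower after centring. None of 6 fibroblast and 4 endothelial markers reached 1 TPM in 2 libraries, and Col1a2, Col3a1, Pdgfrb and Dcn were at or near 0. Of the macrophage and leukocyte markers 2 of 4 were tested and of the neuronal markers 1 of 6, with 0 called by limma, and their summed TPM was 34.3 or less in any library. The libraries differed in make-up. Protein-coding genes held 68.0% and 67.8% of TPM in the IgG libraries and 83.7% in both SAFB libraries. Across genes, log2(TPM + 1) correlated at r = 0.923 between the IgG libraries, 0.978 between the SAFB libraries and 0.83 to 0.862 between groups. The median log2 fold change of SAFB RIP over IgG RIP was 0.46 over all genes tested, so counts of members, families and nested entries are also given after the libraries were centred on their medians. Each library is a bulk sample, in which fewer cells and less RNA per cell cannot be told apart, and the read depth behind TPM values is unknown.

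Of the 40 members tested, 18 were higher in the SAFB RIP (45.0%) and 0 were lower in limma's test on log2(TPM + 1), with p-values adjusted by the Benjamini-Hochberg method over all genes (threshold 0.05). Over all genes tested, 29.8% were called higher and 8.30% lower. At an unadjusted p under 0.05, 24 members were higher and 0 lower. The members' median log2 fold change was 0.70, against 0.46 over all genes, and 27 of the 40 lay above that all-gene median. Their summed TPM was 2773 and 2778 in the IgG libraries and 4099 and 4163 in the SAFB libraries, or 0.277%, 0.278%, 0.410% and 0.417% of each library. The groups did not overlap in 36 members, with the SAFB values above the IgG values in 33 (52.3% of all genes) and below them in 3 (21.4% of all genes). Dlg2, among the 18 called higher, and Macrod2, not called, passed the level filter through the SAFB libraries alone. Both are among the 33, and their direction was fixed by the filter. Single members stood between the 22.2 and the 93.7 percentile of all genes by fold change, so none was among the lowest 10% of genes and 2, Diaph3 and Ext1, were among the highest 10%.

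After median centring, 7 members were higher and 4 lower, where 16.4% of all genes were higher and 17.6% lower. The 7 were Magi3, Utrn, Erc1, Diaph2, Diaph3, Lrba and Ext1, and the 4 were Tmem135, Lpp, Bcas3 and Ptprk. Leaving out either SAFB library left 0 members called in limma (10 higher at an unadjusted p under 0.05 in each case), and 4.61% and 4.70% of all genes called higher. With either IgG library left out, more members were called higher, and so was a larger share of all genes. The remaining library of a group is then assumed to vary like the other group's pair.

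**Figure D1:**
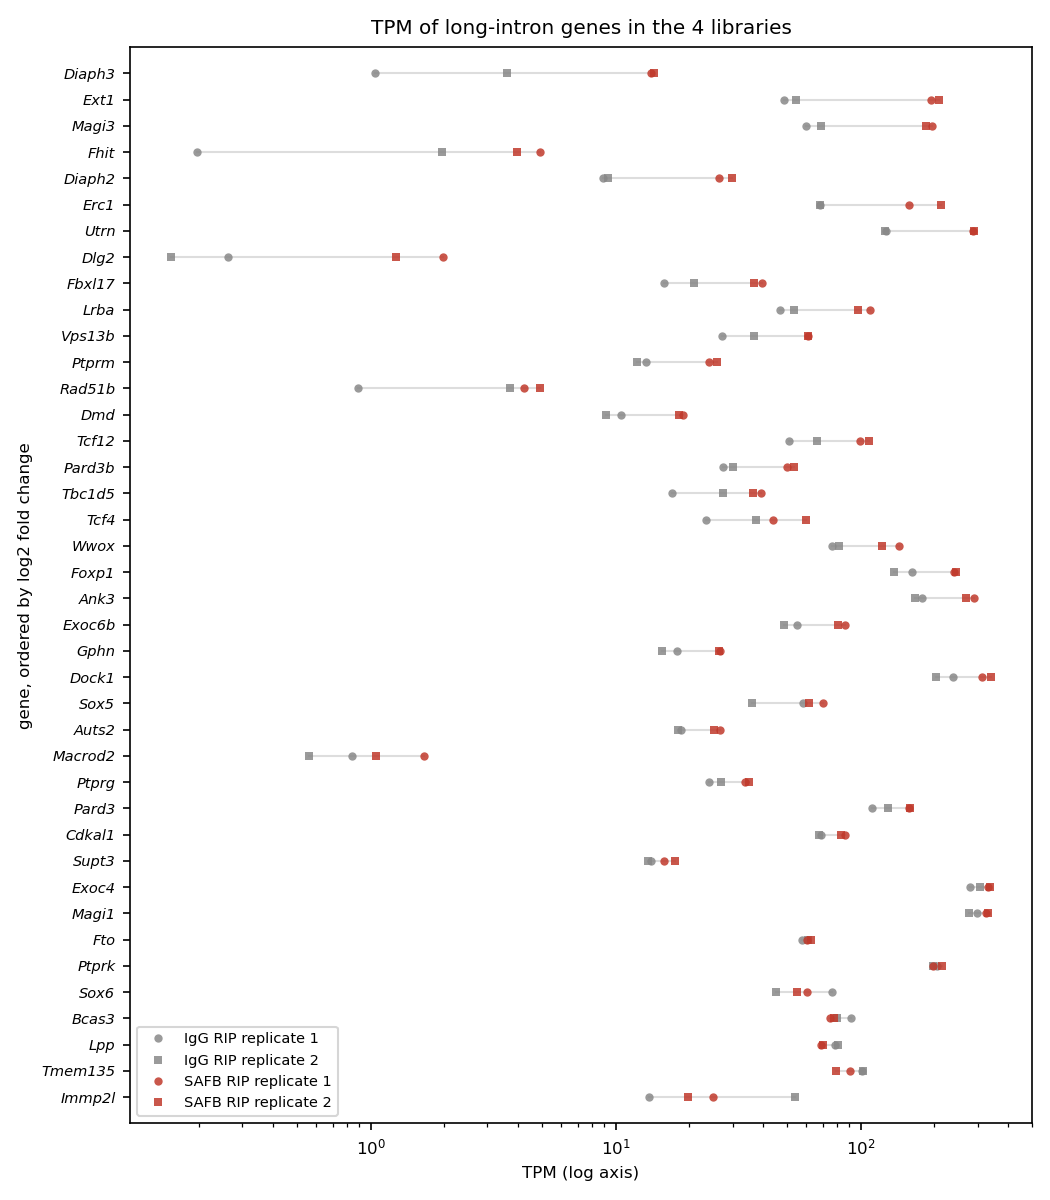
TPM (log axis) of the 40 tested members, each gene a row ordered by log2 fold change, with grey marks for the IgG RIP and red marks for the SAFB RIP (circle, replicate 1; square, replicate 2). In 33 rows both red marks lie to the right of both grey marks, and the grey marks lie far apart for Fhit, Diaph3, Rad51b and Immp2l.

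The IgG libraries limited the precision for a few members. Between the IgG libraries the median absolute difference over members was 0.18 on the log2(TPM + 1) scale, and between the SAFB libraries 0.11. In 4 members (Immp2l, Diaph3, Rad51b and Fhit) the IgG values differed by over 2-fold, and in 0 members did the SAFB values. The members' mean level had a median of 59.95 TPM and ranged from 0.916 TPM in Dlg2 to 313 TPM in Exoc4, and 11 of them were in the upper 10% of genes by level.

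Cytoskeletal and membrane-skeleton genes made up the group with the largest share called among the members. Of 7 tested, 6 were higher (median log2 fold change 1.19), 4 stayed higher after median centring, and in all 7 the SAFB libraries lay above the IgG libraries. Over all genes tested, 29.8% were higher, 16.4% were higher after centring, and 52.3% had both SAFB values above both IgG values. Diaph3, a formin that builds unbranched actin filaments, had 1.04 and 3.61 TPM in the IgG libraries and 14.0 and 14.3 TPM in the SAFB libraries. Its log2 fold change was 2.30 ± 0.50 (SE; adjusted p = 0.0272), the largest among the members, and its IgG values were far apart. Diaph2, the X-linked relative of Diaph3 (chrX:129749742-130465834), had 8.91 and 9.33 TPM with IgG and 26.5 and 29.8 TPM with the SAFB antibody, a log2 fold change of 1.52 ± 0.23 (adjusted p = 0.0125). Both formins were thus low in the IgG RIP and well separated in the SAFB RIP.

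Erc1 encodes ELKS, a scaffold of cortical microtubule capture and secretion sites. It had 68.3 and 68.0 TPM with IgG and 158 and 213 TPM with the SAFB antibody (1.41 ± 0.17, adjusted p = 0.00866). Utrn encodes utrophin, the autosomal homologue of dystrophin that ties actin to the dystroglycan complex, and spans chr10:12382188-12869365 with 74 exons. Its values were 127 and 125 TPM with IgG and 288.5 and 289.6 TPM with the SAFB antibody, a log2 fold change of 1.19 ± 0.09 (adjusted p = 0.00468). Dystrophin itself (Dmd, 79 exons over 2257 kb) was lower in level, at 10.5 and 9.10 TPM with IgG and 18.8 and 18.1 TPM with the SAFB antibody. Its groups did not overlap, and it missed the threshold (0.85 ± 0.25, adjusted p = 0.0569).

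Ank3 encodes ankyrin-G, which anchors membrane proteins to spectrin. It had 179 and 167 TPM with IgG and 291 and 269.7 TPM with the SAFB antibody (0.69 ± 0.10, adjusted p = 0.0117). Dock1, an exchange factor for the small GTPase Rac, had 237 and 204 TPM with IgG and 314 and 340.2 TPM with the SAFB antibody (0.57 ± 0.12, adjusted p = 0.0254). The calls of Ank3 and Dock1 were lost after median centring. Erc2, the neuronal relative of Erc1, was listed at 0 in both IgG libraries and below 0.1 TPM in both SAFB libraries, and was not tested.

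Of the 6 junction and polarity scaffolds tested, 3 were higher (Magi3, Dlg2 and Pard3b) and 3 were not called, with a median log2 fold change of 0.61. The share higher was 50.0%, against 29.8% over all genes, and it includes Dlg2, whose direction was fixed by the filter. After median centring 1 was higher (Magi3) and 1 lower (Lpp), or 16.7% each, against 16.4% and 17.6% of all genes. Magi3, a membrane-associated guanylate kinase of tight junctions at chr3:104013259-104220374, had 59.7 and 68.6 TPM with IgG and 196 and 185 TPM with the SAFB antibody. Its log2 fold change was 1.56 ± 0.12 (adjusted p = 0.00483). Its paralog Magi1 was among the most abundant members at 299 and 277 TPM with IgG and 326 and 329.6 TPM with the SAFB antibody. The groups of Magi1 did not overlap, the fold change was 0.19 ± 0.09 (adjusted p = 0.182), and its sign turned after centring. Magi2 was listed at 0 with IgG and at 0.174 and 0.113 TPM with the SAFB antibody, and was not tested.

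Pard3 and Pard3b encode polarity scaffolds of the Par complex. Pard3b had 27.6 and 30.1 TPM with IgG and 49.9 and 53.3 TPM with the SAFB antibody (0.82 ± 0.15, adjusted p = 0.0187). Pard3 had 111 and 129 TPM with IgG and 157 and 159 TPM with the SAFB antibody (0.40 ± 0.12, adjusted p = 0.057). Both genes had SAFB values above their IgG values, and Pard3 missed the threshold. Dlg2, a guanylate kinase scaffold best known at synapses, had 0.261 and 0.153 TPM with IgG and 1.98 and 1.27 TPM with the SAFB antibody (1.11 ± 0.28, adjusted p = 0.0407). It passed the level filter through the SAFB libraries alone, so it had to differ, and its sign turned under quantile normalization. The second Dlg2 identifier was listed at 0 with IgG and at 0.477 and 0.772 TPM with the SAFB antibody, just outside the filter. Lpp, a LIM-domain protein of focal adhesions, had 78.3 and 80.9 TPM with IgG and 69.1 and 70.2 TPM with the SAFB antibody. Its SAFB values lay below its IgG values (-0.19 ± 0.11, adjusted p = 0.23), and it was called lower after centring.

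Among the receptor protein tyrosine phosphatases, 1 of 3 tested was higher (33.3%, near the 29.8% of all genes) and the median log2 fold change was 0.42. Ptprm and Ptprk are close relatives whose extracellular parts bind the same receptor on neighbouring cells. Ptprm had 13.4 and 12.2 TPM with IgG and 24.1 and 26.0 TPM with the SAFB antibody (0.92 ± 0.22, adjusted p = 0.0329). Ptprk was far more abundant, at 205 and 197 TPM with IgG and 197 and 215 TPM with the SAFB antibody, and its groups overlapped (0.03 ± 0.10, adjusted p = 0.825). Ptprk was called lower after centring. Ptprg, which carries a carbonic anhydrase-like domain, had 24.1 and 26.9 TPM with IgG and 33.8 and 35.0 TPM with the SAFB antibody and was not called (0.42 ± 0.17, adjusted p = 0.116). Ptprd stayed below 0.4 TPM in every library and was not tested.

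The genes of vesicle and membrane traffic gave 3 higher of 5 tested (median 0.78), and in all 5 the SAFB libraries lay above the IgG libraries. The shares over all genes were 29.8% higher and 52.3% with the SAFB libraries above. After median centring only Lrba of the 5 was higher (20.0%, against 16.4% of all genes). Lrba, a BEACH-domain protein that protects cargo from lysosomal breakdown, had 47.0 and 53.6 TPM with IgG and 109 and 98.0 TPM with the SAFB antibody (1.03 ± 0.13, adjusted p = 0.00976). Vps13b, a lipid transfer protein of the Golgi, had 27.2 and 36.8 TPM with IgG and 61.0 TPM in both SAFB libraries (0.93 ± 0.19, adjusted p = 0.0249). Tbc1d5, which switches off the endosomal GTPase Rab7, had 17.0 and 27.3 TPM against 39.2 and 36.4 TPM and was not called (0.78 ± 0.27, adjusted p = 0.0855). The 2 exocyst subunits of the list differed in call. Exoc6b had 54.8 and 48.5 TPM with IgG and 86.2 and 80.5 TPM with the SAFB antibody (0.68 ± 0.13, adjusted p = 0.0206). Exoc4, the most abundant member, had 279 and 307 TPM with IgG and 329.8 and 337 TPM with the SAFB antibody (0.19 ± 0.10, adjusted p = 0.196). Nbea, the neuronal relative of Lrba, was listed at 0 in all 4 libraries.

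Transcription and chromatin genes gave 2 higher of 7 tested (median 0.51), or 28.6%, near the 29.8% of all genes. Neither call held after centring. Tcf12, a bHLH E protein, had 51.1 and 66.3 TPM with IgG and 99.8 and 108 TPM with the SAFB antibody (0.82 ± 0.17, adjusted p = 0.0233). Foxp1, a forkhead repressor, had 163 and 136 TPM with IgG and 239 and 245.5 TPM with the SAFB antibody (0.70 ± 0.12, adjusted p = 0.0171). The second E protein gene, Tcf4, had a fold change near that of Tcf12 with a larger error (0.77 ± 0.30, adjusted p = 0.106). Its values were 23.4 and 37.5 TPM with IgG and 43.9 and 60.1 TPM with the SAFB antibody. The SOXD genes Sox5 and Sox6 had IgG values that lay apart, at 58.3 and 36.1 TPM for Sox5 and 76.2 and 45.3 TPM for Sox6, and neither was called. Auts2, a partner of polycomb complexes, and Supt3, a subunit of the SAGA coactivator, had log2 fold changes of 0.48 ± 0.19 and 0.26 ± 0.23 and were not called either.

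The enzymes and genome maintenance genes gave 2 higher of 9 tested (median 0.65), or 22.2% against 29.8% of all genes. Ext1, which polymerizes heparan sulfate chains, lies at chr15:53064038-53346159 and 237 of its 282 kb are intron 1. It had 48.8 and 54.4 TPM with IgG and 193 and 208 TPM with the SAFB antibody, a log2 fold change of 1.94 ± 0.12 (adjusted p = 0.00407). Wwox, an oxidoreductase encoded at a fragile site, had 76.5 and 81.3 TPM with IgG and 144 and 123 TPM with the SAFB antibody (0.74 ± 0.13, adjusted p = 0.0161). Fhit, a dinucleoside triphosphate hydrolase at another fragile site, had 0.196 and 1.95 TPM with IgG and 4.93 and 3.97 TPM with the SAFB antibody. Its groups did not overlap, but the IgG values differed so widely that it was not called (1.53 ± 0.53, adjusted p = 0.0833).

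Fto, the RNA demethylase, was not called, with 57.8 and 61.1 TPM against 60.7 and 62.8 TPM (0.05 ± 0.12, adjusted p = 0.753). Immp2l, a peptidase of the mitochondrial inner membrane, had 13.7 and 53.7 TPM with IgG, and both SAFB values (25.1 and 19.8 TPM) lay between them. The others of this group were not called. They were Rad51b, a DNA repair gene (0.89 ± 0.54), Gphn, the receptor scaffold gephyrin (0.65 ± 0.20), Macrod2, an ADP-ribose hydrolase (0.46 ± 0.30), and Cdkal1, a tRNA-modifying enzyme (0.31 ± 0.11). Macrod2, just inside the level filter, had 0.842 and 0.559 TPM with IgG and 1.66 and 1.05 TPM with the SAFB antibody, and like Dlg2 it passed through the SAFB libraries alone. Prkg1, the cGMP-dependent kinase, was listed at 0 in all 4 libraries, and Naaladl2 stayed at 0.132 TPM or below.

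Of the remaining genes, Fbxl17, which encodes a substrate receptor of a ubiquitin ligase, was higher at 15.7 and 20.9 TPM with IgG and 39.7 and 36.7 TPM with the SAFB antibody (1.03 ± 0.22, adjusted p = 0.0256). Bcas3 and Tmem135, a peroxisomal and mitochondrial membrane protein, had SAFB values below their IgG values. Tmem135 had 101 and 102.6 TPM with IgG and 90.7 and 79.2 TPM with the SAFB antibody (-0.26 ± 0.12, adjusted p = 0.153), and Bcas3 91.0 and 80.0 TPM against 75.1 and 78.0 TPM (-0.15 ± 0.12, adjusted p = 0.368). Neither was called as deposited and both were lower after centring. Ccser1 was below 0.4 TPM in every library and was not tested.

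**Figure D2:**
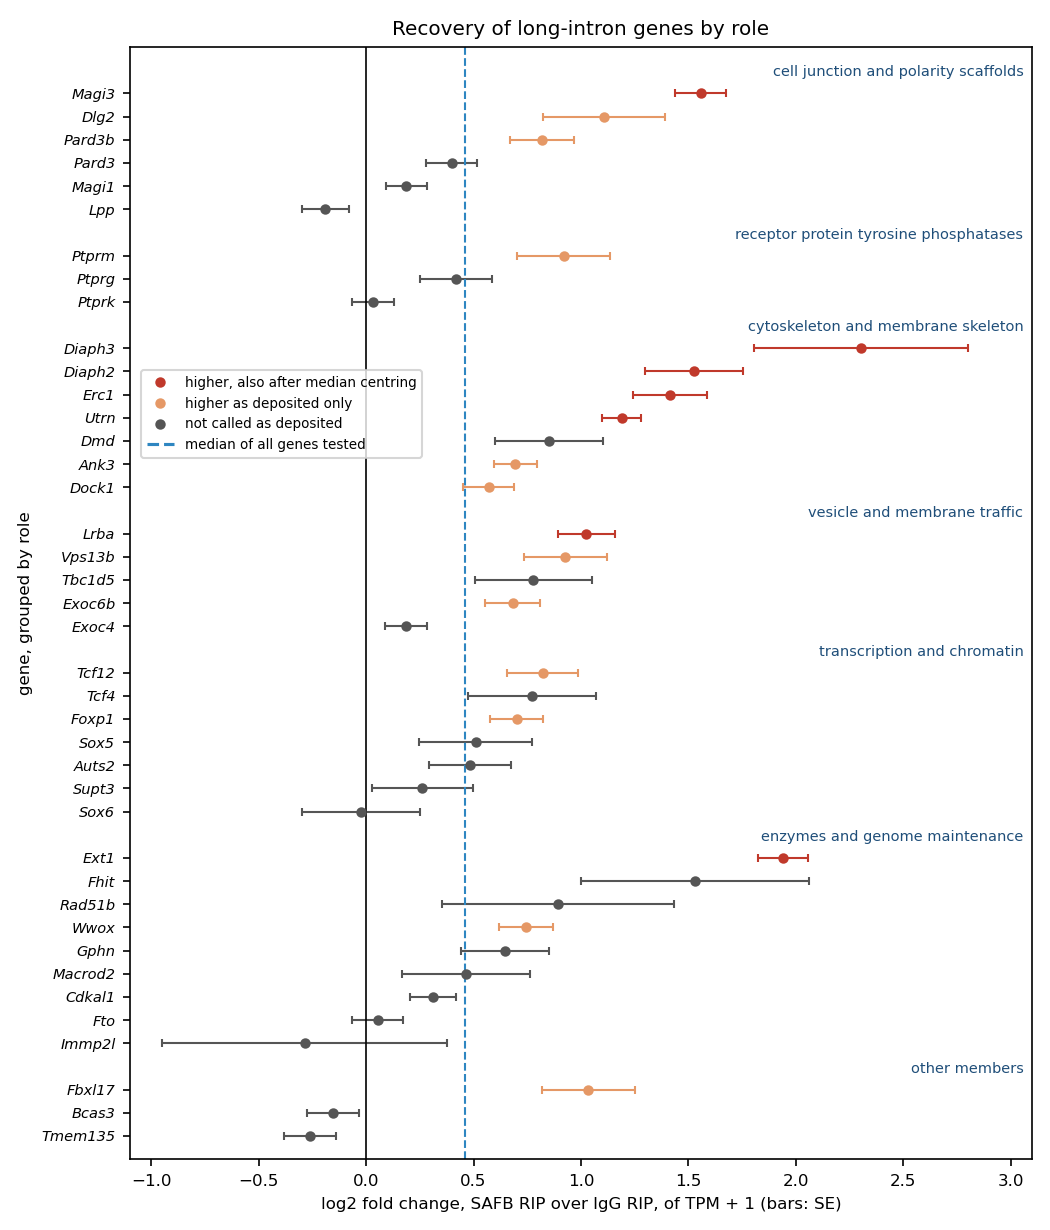
Log2 fold change of TPM + 1, SAFB RIP over IgG RIP, of the 40 tested members by role, with the standard error as a bar; colours give the call as deposited and after median centring, and the dashed line is the all-gene median of 0.46. The cytoskeletal genes all lie to the right of the dashed line, while Lpp, Sox6, Immp2l, Bcas3 and Tmem135 lie below 0.

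Within the list, the rank correlations of recovery with gene size were small. Over the 40 members, the Spearman rank correlation of the log2 fold change was -0.09 with gene span, -0.03 with the longest intron, 0.19 with transcript length, 0.23 with exon number, -0.08 with GC content and -0.23 with mean TPM. These correlations are across genes that share the same 4 libraries and are given as a description. The members called higher had a median span of 530 kb and longest intron of 119 kb, against 583 kb and 139 kb for the 22 not called. Their transcripts were longer, with medians of 6918 and 5138 bases and 23 and 17.5 exons.

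Across the 11961 protein-coding genes tested, the shares called differed between classes of span. Of 2979 genes under 10 kb, 19.2% were higher and 17.0% lower. Of 1223 genes of 100 to 300 kb, 41.5% were higher and 2.04% lower, and of 251 genes of 300 kb or more, which include 35 of the members, 34.7% and 0.398%. Other entries of 300 kb or more of any annotated kind, leaving out the members, gave 75 higher (33.8%) and 1 lower of 222 tested, with a median log2 fold change of 0.62. The 40 members had 45.0% called higher beside 33.8% for the other long entries, but the sets are not alike. Of the members tested, 5 span under 300 kb: Magi3, Tcf12, Erc1 and Ext1, which were called higher, and Tmem135, which was not. The sets also differ in level, with a median IgG mean of 50.9 TPM in the members and 15.4 TPM in the others. The difference in shares was not tested.

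GC content moved with span. The median GC content of the transcript fell from 54.0% in the class under 10 kb to 47.9% in the class of 300 kb or more, and over the protein-coding genes the Spearman rank correlation of the log2 fold change was -0.51 with GC content and 0.23 with span. With the trend on GC content removed, 24.7% of all genes were higher and 4.25% lower, and 12 members were higher and 2 lower (Lpp and Tmem135). Of the 18 members called as deposited, 10 kept the call. Pard3 (0.74) and Auts2 (0.83) gained it. On that scale 20.8% of genes under 10 kb, 30.5% of those of 100 to 300 kb and 26.3% of those of 300 kb or more were higher, and the members' median log2 fold change was 0.44, equal to the 0.44 of all genes. After median centring, the genes of 300 kb or more were higher in 16.3% and lower in 4.78%, and those under 10 kb in 9.73% and 31.5%.

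**Figure D3:**
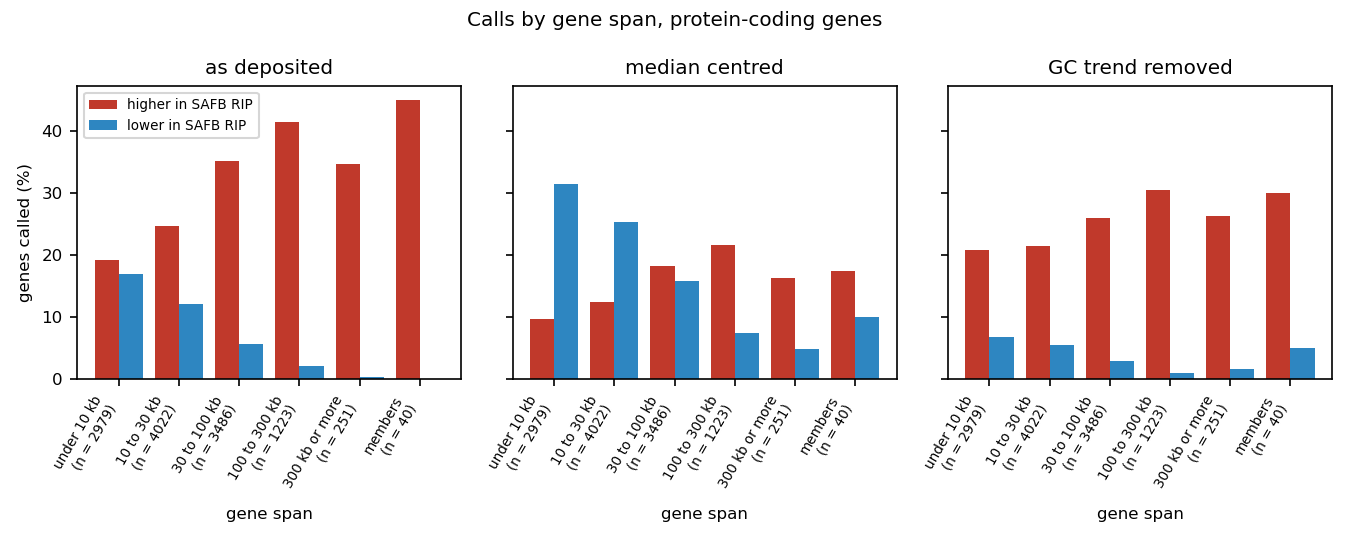
Percentage of protein-coding genes called higher (red) and lower (blue) in the SAFB RIP by class of gene span, as deposited, after median centring and with the GC trend removed; the last pair of bars is the members (n = 40). The blue bars shorten from the class under 10 kb to the class of 100 to 300 kb in all 3 panels, and with the GC trend removed they rise again from 0.981% to 1.59% in the longest class.

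A separate set of 62 other genes known for long introns, such as those for neuronal adhesion proteins and developmental regulators, gave a like count. Of 41 tested, 18 were higher and 0 lower in limma, with a median of 0.69, and 9 were higher and 3 lower after centring. Over all genes tested, 29.8% were higher and 8.30% lower, and 16.4% and 17.6% after centring. Among its abundant members called, Vti1a, a SNARE protein, had 88.0 and 86.3 TPM with IgG and 312 and 299 TPM with the SAFB antibody (1.80 ± 0.09). Zbtb20, a zinc finger repressor abundant in liver, had 105 and 118 TPM against 199 and 176 TPM (0.75 ± 0.12). Nfib, a nuclear factor I gene, had 37.6 and 48.4 TPM against 136 and 139 TPM (1.67 ± 0.16), and Arid1b, a subunit of the BAF chromatin remodeller, had a log2 fold change of 0.63 ± 0.12.

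The members were then set beside the other genes of their families and complexes. For the family counts given below, the shares over all genes were 29.8% higher and 8.30% lower, and 16.4% and 17.6% after centring. Exocyst subunits, which tether vesicles to the plasma membrane as one complex, gave 5 higher and 0 lower of 9 (2 and 1 after centring), with Exoc6 at 66.9 and 62.9 TPM with IgG and 260.1 and 225 TPM with the SAFB antibody (1.88 ± 0.12). Exoc8 (1.17 ± 0.17) and Exoc1 (0.76 ± 0.11) were also higher. Exoc6 thus had a larger fold change than its paralog Exoc6b (0.68 ± 0.13), and the difference was not tested. Receptor phosphatases gave 2 higher and 1 lower of 13 tested (median 0.23), and 1 higher and 4 lower after centring. Ptpra was higher (0.88 ± 0.10), and Ptprf, the most abundant of them with IgG, was lower at 274 and 269.9 TPM against 175 and 190.1 TPM (-0.57 ± 0.10).

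The scaffolds of tight junctions and cell polarity gave 9 higher and 2 lower of 19, and 2 higher and 5 lower after centring. Tjp1, the ZO-1 scaffold to which several junction proteins bind, had 79.1 and 86.4 TPM with IgG and 344 and 322 TPM with the SAFB antibody (1.997 ± 0.10), and Dlg1 (1.20 ± 0.30) was also higher. Dlg5 (-0.53 ± 0.14) and Scrib (-0.71 ± 0.18) were lower. Formins gave 5 higher and 2 lower of 11 tested, and 5 and 3 after centring. Beside Diaph2 and Diaph3, Fmn1 (1.51 ± 0.18) and Fmnl2 (1.18 ± 0.18) were higher and Inf2 (-0.45 ± 0.12) and Fhod1 (-0.89 ± 0.14) lower, while Diaph1, the third diaphanous gene, had 85.9 and 97.5 TPM against 94.3 and 103 TPM and was not called (0.11 ± 0.12). The diaphanous family therefore held 2 genes that were called higher and 1 whose groups overlapped.

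BEACH-domain genes gave 3 higher and 1 lower of 7 tested, and 1 and 2 after centring. Lyst (1.17 ± 0.26) and Nbeal1 (0.80 ± 0.13) were higher with Lrba, and Nbeal2 was lower at 274 and 214 TPM against 103 and 127 TPM (-1.08 ± 0.18). Of the 4 VPS13 lipid transfer genes 3 were higher (2 after centring), with Vps13a at 1.76 ± 0.12, Vps13c at 0.95 ± 0.12 and Vps13b at 0.93 ± 0.19, and Vps13d was not called (0.10 ± 0.18). The dystrophin complex gave 2 higher and 0 lower of 8 tested (1 and 1 after centring), Utrn and the sarcoglycan gene Sgce (0.77 ± 0.21). The third E protein gene, Tcf3, was lower where Tcf12 was higher, at 107 and 82.7 TPM with IgG and 62.2 and 59.2 TPM with the SAFB antibody (-0.62 ± 0.16). Foxp4 was likewise lower (-1.001 ± 0.17) beside Foxp1. Ext2, whose product forms the heparan sulfate polymerase together with that of Ext1, had 162 and 144 TPM against 119 and 126 TPM and was not called (-0.32 ± 0.11), so the 2 subunits of this enzyme had fold changes of opposite sign.

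Of 15 m6A methylation genes, 10 were higher and 1 lower (median 1.14), and 8 and 2 after centring. They included the writer subunit Rbm15 (2.09 ± 0.15) and the readers Ythdf1 (1.14 ± 0.14), Ythdf2 (2.59 ± 0.14) and Ythdf3 (1.68 ± 0.14). Fto and Alkbh5 are the erasers of this mark. Fto was not called, and Alkbh5 was lower at 92.0 and 72.3 TPM with IgG and 49.6 and 50.8 TPM with the SAFB antibody (-0.69 ± 0.16).

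**Figure D4:**
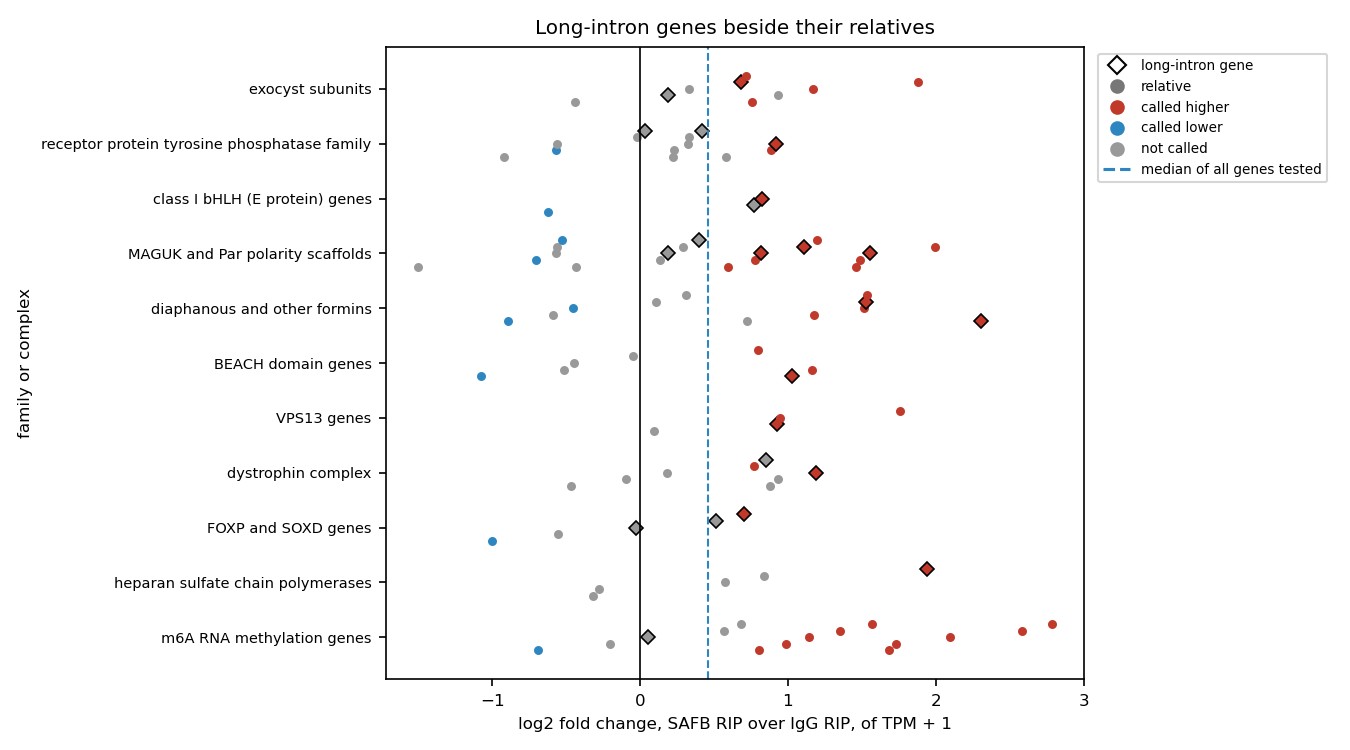
Log2 fold change of TPM + 1, SAFB RIP over IgG RIP, of the tested genes of 11 families and complexes; diamonds are long-intron genes, circles their relatives, and colours the call at an adjusted p under 0.05. The diamonds of the formin, BEACH and VPS13 rows are all red, and the blue circles in the E protein and FOXP rows are Tcf3 and Foxp4.

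Long introns hold other annotated entries, and these were examined as separate readouts of the same loci. Inside 43 of the members lay 247 table entries, of which 58 in 24 members were tested. Of these 58, 11 were higher (19.0%) and 1 was lower (1.72%), with a median log2 fold change of 0.51, where 29.8% and 8.30% of all genes were called. Of the 58, 4 passed the level filter through the SAFB libraries alone, and 3 of these are among the 11, so that their direction was fixed by the filter. After centring 5 were higher and 2 lower. Most lay on the member's own strand and off its exons (52 tested, 10 higher and 1 lower). Such entries can share reads with the unspliced transcript around them. The use of strand in the authors' counting is not given in the sources used here, and 16 of the 247 entries overlapped an exon of their member, in 13 members. Of 127 entries on the member's strand and off its exons 52 were tested, and of 116 on the opposite strand 5 were. The reason for this difference was not tested.

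Most tested entries on the same strand were annotated as sense intronic or to be experimentally checked. Of 42 such entries inside members 6 were higher (14.3%) and 1 lower. Inside other protein-coding genes of 100 kb or more, 23.3% of 433 entries of these kinds were higher and 1.62% lower. These shares are descriptions of entries that cluster in few genes: Magi3 alone held 11 of the tested entries and Tcf12 held 8.

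Fto held 4 tested entries, of which 3 were higher, while Fto itself had a log2 fold change of 0.05. Gm45293, in intron 8 at chr8:91633079-91634890, had 10.8 and 8.97 TPM with IgG and 54.6 and 46.3 TPM with the SAFB antibody (2.24 ± 0.22, adjusted p = 0.00606). Gm45294, in the same intron at chr8:91579288-91581389, had 1.15 and 4.97 TPM against 21.3 and 21.0 TPM (2.63 ± 0.57, adjusted p = 0.0276). Gm45292, in intron 4, had 0 and 1.56 TPM against 5.69 and 6.29 TPM (2.13 ± 0.54, adjusted p = 0.0399). In each of the 3 the lower SAFB value exceeded the higher IgG value. The calls of Gm45293 and Gm45294 stayed after centring and that of Gm45292 did not. With the GC trend removed, only that of Gm45293 stayed in limma (adjusted p = 0.00949, with 0.0508 for Gm45294 and 0.0736 for Gm45292).

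In intron 1 of Magi3, C030032O16Rik was higher at 3.14 and 5.58 TPM against 15.1 and 14.9 TPM (1.62 ± 0.37, adjusted p = 0.03). Gm42701, in the same intron, was lower at 5.74 and 8.79 TPM against 2.02 and 2.39 TPM (-1.34 ± 0.36, adjusted p = 0.046). The call of C030032O16Rik was lost after centring (adjusted p = 0.0629), with quantile normalization (0.068), with the GC trend removed (0.0544), without a filter (0.0514) and without either SAFB library (0.291 and 0.275). That of Gm42701 was lost with a pseudocount of 0.1 (adjusted p = 0.0682), without a filter (0.0923), with the length trend removed (0.0582), with the replicate block (0.0765) and without either SAFB library (0.312 and 0.266). Over all alternatives the adjusted p ranged from 0.00145 to 0.291 for the former and from 0.00825 to 0.312 for the latter. The other 9 tested entries of Magi3 were not called.

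The entries inside members with the highest mean TPM among those called were 2 processed pseudogenes and a gene on the opposite strand. Gm17228, in intron 6 of Fbxl17, had 10.9 and 19.6 TPM against 159 and 156 TPM (3.34 ± 0.29, adjusted p = 0.00558). Gm6921, in intron 22 of Pard3, had 12.6 and 34.8 TPM against 183 and 168 TPM (2.999 ± 0.48, adjusted p = 0.0143). Processed pseudogenes share sequence with their parent genes, so these values are uncertain. Cstf2t, an intronless gene for a 3′-end processing factor, lies at chr19:31082837-31087069 in intron 3 of Prkg1. It had 45.8 and 48.4 TPM with IgG and 224 and 208 TPM with the SAFB antibody (2.17 ± 0.11, adjusted p = 0.00378), while Prkg1 was listed at 0. In intron 2 of Ptprg, CT009480.1 was higher as well (1.65 ± 0.35, adjusted p = 0.0268), a call that was lost after centring. The small nuclear RNA entries Gm23765 in Bcas3 and Gm25039 in Lrba, and AC102431.1 in Fhit, had entries of 0 with IgG and 1.24 to 3.69 TPM with the SAFB antibody. These 3 passed the filter through the SAFB libraries alone, so they had to differ, and none of their calls held after centring.

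**Figure D5:**
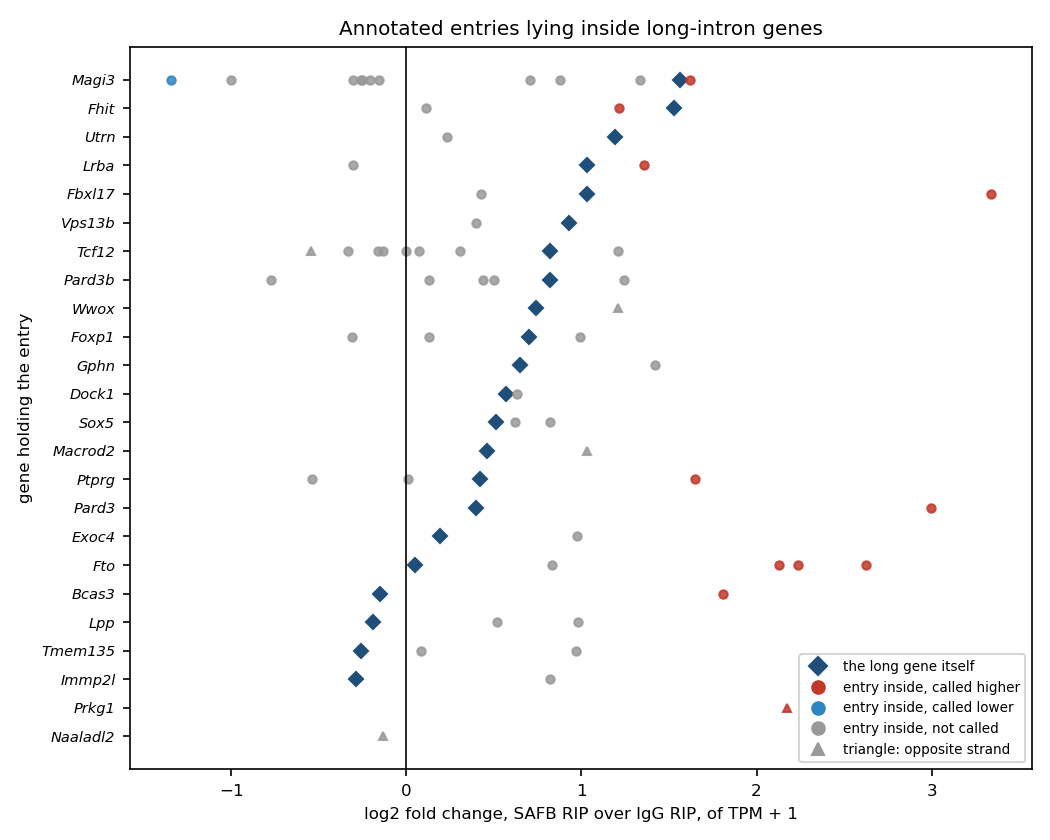
Log2 fold change of TPM + 1, SAFB RIP over IgG RIP, of the 58 tested entries lying inside 24 members, with the member itself as a diamond (none for Prkg1 and Naaladl2, which were not tested) and triangles for entries on the opposite strand. In the Fto row 3 red circles lie above 2 while the diamond is at 0.05.

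Because SAFB proteins favour purine-rich RNA, the coding sequences were searched for the pentamer GAAGA, on the transcript's own strand and with overlapping matches counted. All 40 tested members held it, as did 92.4% of the 11961 protein-coding genes tested. The density was a median of 3.79 matches per kb in the members, against 3.27 per kb in the protein-coding genes. The 18 members called higher had 4.71 matches per kb and the 22 not called 3.45 per kb. The 18 include Dlg2, whose direction was fixed by the level filter. Over all protein-coding genes, those called higher had 4.36, those not called 3.05 and those called lower 2.03 matches per kb. In the same genes the Spearman rank correlation of the log2 fold change with GC content was -0.51. Neither these densities nor the windows below were adjusted for base composition, so the 2 cannot be told apart here.

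Clusters of matches were counted as well. A window of 60 bases within a single coding exon held at least 3 matches in 10 of these 18 genes (55.6%) and in 3 of the 22 not called (13.6%). Over the protein-coding genes tested the share was 16.6%. It was 29.0% among genes called higher, 12.6% among those not called and 5.94% among those called lower. Coding sequences of the members called higher were longer, with a median of 3370 bases against 2300, which gives more windows, and these counts are a description without a test. The 10 genes include Dlg2, whose direction was fixed by the level filter. A match is not a binding site.

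The window richest in the pentamer is shown for 4 members called higher also after centring, for Gphn, which had the most matches in a window among the tested members and was not called, and for Tmem135, whose SAFB values were below its IgG values. Capitals mark the matches to GAAGA, all sequences are read 5′ to 3′ on the coding strand, and they come from GENCODE M21 transcripts (mm10).
Magi3: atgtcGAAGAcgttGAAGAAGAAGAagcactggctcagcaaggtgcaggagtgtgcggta
Utrn: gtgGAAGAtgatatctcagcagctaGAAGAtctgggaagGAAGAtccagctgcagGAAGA
Lrba: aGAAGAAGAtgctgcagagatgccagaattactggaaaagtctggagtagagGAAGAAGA
Diaph2: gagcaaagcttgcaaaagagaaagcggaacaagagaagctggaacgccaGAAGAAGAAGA
Gphn: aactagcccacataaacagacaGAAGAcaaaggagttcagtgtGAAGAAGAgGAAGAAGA
Tmem135: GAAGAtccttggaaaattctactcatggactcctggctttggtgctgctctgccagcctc
The windows lie at chr3:104219907-104219966 (Magi3, minus strand), chr10:12714263-12714322 (Utrn, minus strand), chr3:86348601-86348660 (Lrba, plus strand) and chrX:130289906-130289965 (Diaph2, plus strand). Those of Magi3, Utrn and Lrba held 4 matches and that of Diaph2 held 3. The window of Gphn (chr12:78492175-78492234, plus strand) held 5 and that of Tmem135 (chr7:89304714-89304773, minus strand) held 1. Macrod2 and Supt3, which were not called, had the densest coding sequences among the tested members, with 11.2 and 8.02 matches per kb. Ext1 held 2.23 matches per kb over its coding sequence, below the 3.27 per kb of the protein-coding genes, although its log2 fold change of 1.94 was the second largest among the members. Dense and sparse GAAGA were thus both found among members called higher and among members not called.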

How the data were processed

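The deposited data are a single table with a TPM value for each gene and library, computed by the authors and scaled to 1000000. Per the submitters' processing notes, HISAT2, StringTie, HTSeq and DESeq2 were used with build mm10. Which of these gave the TPM values, and with which annotation, is not given in the sources used here. The libraries were strand-specific per the labels' protocols, but whether strand was used in counting is not given either. TPM keeps no read depth, so no counting interval is given and a 0 is reported as listed at 0.

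Identifiers were matched to GENCODE M21 (52042 of 52189), which gave structure, coordinates and sequences. A gene was tested if 2 or more of the 4 libraries reached 1 TPM. limma 3.58.1 in R 4.3.3 fitted log2(TPM + 1) by group with moderated variances that follow mean level (2 residual and 2.5 prior degrees of freedom, two-sided, Benjamini-Hochberg over 16647 genes, threshold 0.05). Fold changes are on that scale and understate changes of low genes, and their errors are standard errors. An exact permutation test of 2 against 2 libraries cannot go below 0.333, so none was used. The labels group the libraries by antibody.

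The members and gene lists were chosen with earlier results of these data known, so no set test was made. By rule, all members could be named and, of each other list, at most 4 called genes with the highest mean TPM. Outside it, Dlg5, Scrib, Diaph1, Vps13d, Ext2 and Alkbh5, the entries inside members, and the printed windows were chosen after their values were seen. Alternatives covered the pseudocount, filter, scaling, variance trend, transcript length, GC content, replicate block and each library left out.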

Additional observations from a re-analysis of the deposited data

How the results depend on the processing

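In all, 15 alternatives were run, of which the removal of the GC trend was chosen after seeing the data, as was extending all of them to entries inside members and to genes of 300 kb or more. The cause of the changes below was not tested, except that leaving out a library leaves fewer samples.

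Of the members, 18 were higher and 0 lower (0 lower at an unadjusted p under 0.05 in limma). Median centring gave 7 and 4, quantile normalization 8 and 3, protein-coding genes alone, rescaled, 10 and 3, the transcript length trend removed 14 and 1, and the GC trend removed 12 and 2. Of the 18, these settings kept 7, 8, 10, 14 and 10. Over all genes, 16.4% were higher and 17.6% lower after median centring, and 24.7% and 4.25% with the GC trend removed. For the other settings no share over all genes is given, so their counts are not a result about the members. Leaving out 1 library gave 0 to 26 higher (0 without either SAFB library) and 0 to 1 lower. The members' median log2 fold change of 0.70 was 0.73 with a pseudocount of 0.1, 0.60 with 5, 0.66 without a filter, 0.24 centred, 0.29 after quantile normalization, 0.40 on protein-coding genes, 0.50 with the length trend and 0.44 with the GC trend removed, and 0.64 to 0.71 with 1 library left out.

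Entries inside members called higher went from 11 to 7 without a filter, 5 centred, 5 after quantile normalization and 5 with the GC trend removed, and were 3 to 27 with 1 library left out (3 and 4 without SAFB replicate 1 and 2, 19 and 27 without IgG replicate 1 and 2). Those called lower went from 1 to 0 with a pseudocount of 0.1, 0 without a filter, 2 centred, 3 after quantile normalization, 0 with the length trend removed, 0 with the replicate block, and 0 to 6 with 1 library left out. The protein-coding setting does not apply to them. Of protein-coding genes of 300 kb or more, 34.7% were higher, and 18.7% without a filter, 16.3% centred, 19.1% after quantile normalization and 0.797% to 52.6% with 1 library left out. The share called lower, 0.398%, was 0.797% with a pseudocount of 5, 0% without a filter, 1.38% with at least 1 TPM in all 4 libraries, 4.78% centred, 4.78% after quantile normalization, 3.56% on protein-coding genes, 1.59% with the length trend removed, 1.59% with the GC trend removed, 0% without a variance trend, 0.797% with the replicate block and 0% to 3.19% with 1 library left out.

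Some members' log2 fold changes changed sign, among them that of Dlg2, which was called. Centred, Cdkal1 was at -0.15, Ptprk -0.43, Ptprg -0.04, Pard3 -0.06, Exoc4 -0.27, Supt3 -0.20, Magi1 -0.27 and Fto -0.41. After quantile normalization, Cdkal1 was at -0.01, Ptprk -0.28, Exoc4 -0.12, Supt3 -0.24, Magi1 -0.12, Dlg2 -0.22, Fto -0.24 and Macrod2 -0.60. On protein-coding genes, Ptprk was at -0.27, Exoc4 -0.11, Supt3 -0.02, Magi1 -0.11 and Fto -0.24. With the GC trend removed, Cdkal1 was at -0.09, Ptprk -0.34, Exoc4 -0.06, Magi1 -0.03 and Bcas3 0.01, and with the length trend removed Ptprk was at -0.13 and Magi1 -0.02. With 1 library left out, Sox6 ranged from -0.39 to 0.34 (0.34 without IgG replicate 1, 0.04 without SAFB replicate 2), Ptprk from -0.03 (without SAFB replicate 2) to 0.09, and Immp2l from -1.23 to 0.66 (without IgG replicate 2). Over the 52 single genes and all alternatives, 566 of 761 values kept their direction and side of the threshold, 133 lost the call, 30 gained it and 32 changed sign. The labels do not say that equal replicate numbers mark a shared lysate, and deviations of equally numbered libraries correlated at -0.0247 across genes. With the replicate block 17 members were higher and 0 lower, with 16 of the 18 kept (Ptprm and Dlg2 lost, Tcf4 gained) and 10 entries inside members higher.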
